A study of Homo sapiens with 22 samples.

Results

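In SK-N-AS neuroblastoma cells, 102 genes were highest after the first stage of a drug-induced differentiation protocol and lower both before it and in the second stage. They were selected on their measured levels. A gene entered when its mean over the 4 stage 1 libraries was at least 10 CPM (the count scaled by the total of its library), and when this mean plus 1 was at least 2 times the mean plus 1 of each of the 3 other SK-N-AS groups. The 102 genes were chosen from 10228 genes that reached 10 CPM in stage 1 and from 35237 genes in the whole table. The smallest of the 3 ratios of (mean + 1) is called the peak ratio here, and since it chose the genes, SK-N-AS levels are given as a description, with no test.

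RNA was sequenced from 22 libraries of 2 established human neuroblastoma cell lines, which the labels describe as mesenchymal (MES). There were 4 SK-N-AS groups of 4 libraries each. The untreated group was kept in 10% serum. In the first stage, called S1D4, cells were held for 4 days in 1% serum with PP121 at 5 µM and no bufalin. In the second stage S1D4 cells were moved to Neurobasal medium with B27 supplement and 0% serum. There bufalin at 100 nM was added to the same dose of PP121. This stage was sampled after 4 days (S2D4) and after 30 days (S2D30). GIMEN had 3 untreated libraries from 10% serum and 3 libraries (D30) from 1% serum after 30 days with PP121 at 2.5 µM together with bufalin at 10 nM, and no PP121-only stage. PP121 inhibits tyrosine kinases and phosphoinositide kinases, and bufalin is a cardiac glycoside that inhibits the sodium pump. The drug and the serum level changed together in S1D4, and their effects cannot be told apart. From S1D4 to stage 2 the medium, the serum level, bufalin and time changed together, and these cannot be told apart either. The labels do not say that libraries of a group came from separate cultures, so p-values measure only the spread between these samples.

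Neuroblastoma arises from the sympathetic lineage of the neural crest, and its cells carry parts of the neuronal program, such as catecholamine synthesis and regulated secretion. They can also express cytokines and chemokines, secreted or membrane-bound signals that act on leukocytes and on the cells that make them. Many cytokine genes are switched on by NF-kappa-B factors. SOCS3 is a feedback inhibitor of cytokine receptors.

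Library totals ran from 16456484 to 37506800 counts. Differences between SK-N-AS libraries bear on the members. The S1D4 libraries fell into pairs, 1 with 2 and 3 with 4, over all genes compared and not only in members. The median chi-square per gene, which sets a difference against counting error, was 1.59 for replicates 1 and 2. It was 0.965 for replicates 3 and 4, and 4.39 to 5.17 across the pairs. An n of 4 may thus overstate the number of independent S1D4 samples. S2D4 replicate 4 stood away from its 3 partners, at a median chi-square of 16.6 to 18.8, against 1.22 to 1.66 among those 3. Untreated SK-N-AS replicate 4 lay at 9.04 to 19.7 from untreated replicates 1 to 3, which were at 3.66 to 4.70 among themselves. The summed level of 10 mesenchymal marker genes was 1118 to 1617 CPM in untreated SK-N-AS and 33374 to 34889 CPM in untreated GIMEN, while that of 10 adrenergic markers was 2341 to 2602 and 971 to 1003 CPM. Of the mesenchymal markers, none was under 1 CPM in untreated SK-N-AS, and NOTCH2 was under 1 CPM in GIMEN. Leukocyte markers summed to 95.0 to 112 CPM in S1D4 against 187 to 245 CPM in untreated cells, and CD3E, CD3D, MS4A1, ITGAM, LYZ and TYROBP were among those under 1 CPM in S1D4. In bulk RNA, fewer cells of a kind and less RNA per cell cannot be told apart.

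The median member was at 11.6 CPM in untreated cells, 35.8 CPM in S1D4, 7.46 CPM in S2D4 and 5.08 CPM in S2D30. The median peak ratio was 2.37, with a range of 2.0 to 12, so most members lay close to the threshold and a few far above it. By ratio of (mean + 1), S1D4 was at a median of 2.59 times untreated, 3.60 times S2D4 and 5.23 times S2D30. The untreated group set the smallest ratio for 67 members, S2D4 for 29 and S2D30 for 6. The members just inside the ratio threshold were TTC39A at 2.01, SPTBN4 at 2.01 and YPEL1 at 2.0, and the genes just outside were TRIM69 at 1.9995, MST1 at 1.99 and PDE9A at 1.98. At the level threshold, POLRMTP1, PLCXD3 and AQP6 entered with 10.0, 10.5 and 10.5 CPM, and VTN, MROH5 and SCN3A stayed out with 9.99, 9.98 and 9.75 CPM.

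By known role, assigned by hand after the values were seen, 15 members act in immune signalling, 22 in neuronal and secretory functions, 13 in growth signals and their transduction, 8 in matrix, adhesion and glycans, 8 are channels, transporters and enzymes, and 3 are transcription factors. The other 33 were given no role. The median peak ratio was 2.97 in the immune group and between 2.19 and 2.45 in the others. The map of all members by library shows these groups one below the other.

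**Figure D1:**
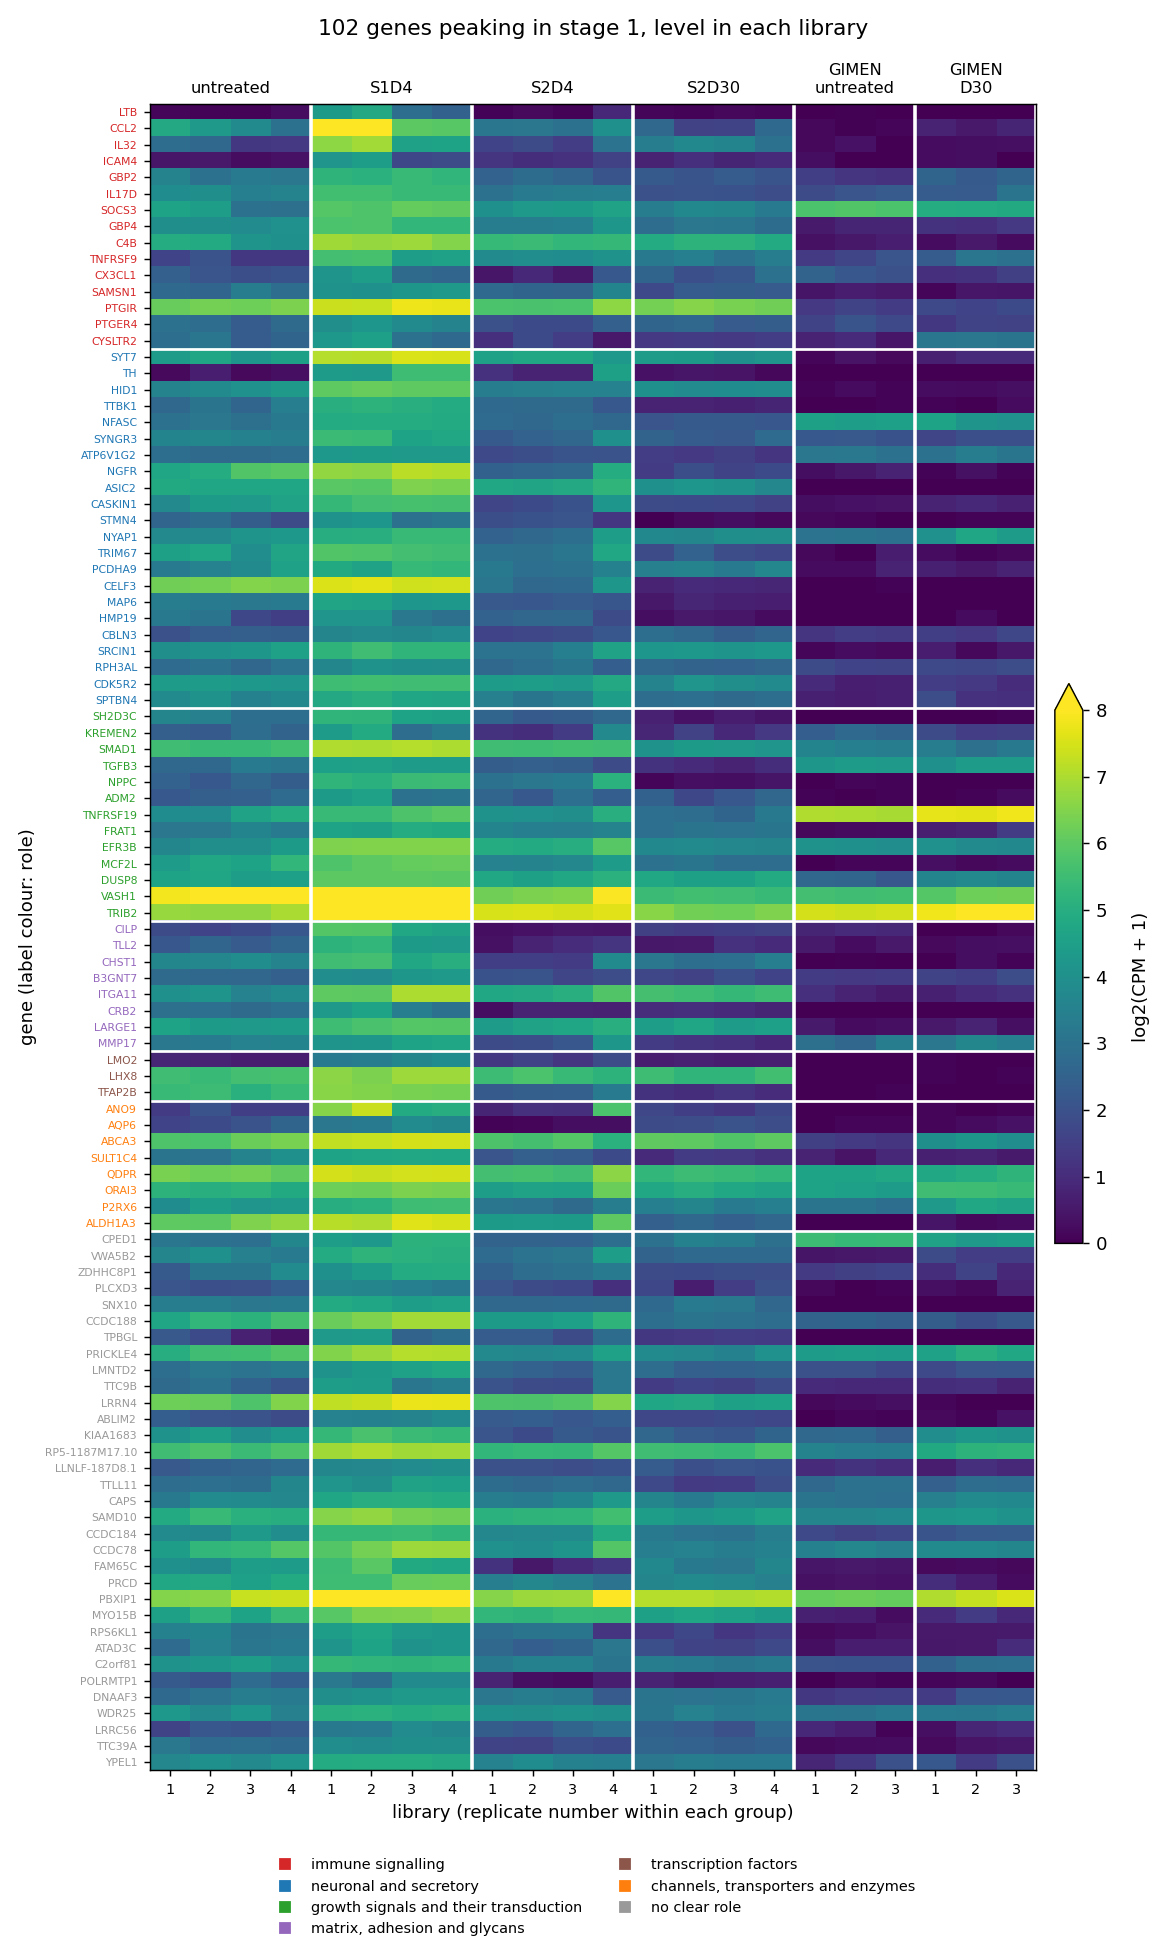
Level of the 102 members (rows, label colour by role) in the 22 libraries (columns), as log2(CPM + 1), with colours capped at 8. S1D4 columns are the brightest of SK-N-AS because this chose the genes, S2D4 replicate 4 resembles S1D4 in part of the rows, and many rows are near 0 in GIMEN.

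In 7 immune members S1D4 replicates 1 and 2 were at least 1.5 times replicates 3 and 4, and 3 of these were picked after the values were seen. The promoters of the rest are not shown. The promoters of the 3 are given below. They are the 250 bases before the transcription start, from RefSeq on GRCh38.p14, and lie at chr6:31582426-31582675 on the minus strand (LTB), chr16:3065153-3065402 on the plus strand (IL32) and chr1:7940840-7941089 on the minus strand (TNFRSF9). Capitals mark matches, on either strand, to GGGNNTTTC (NF-kappa-B-like), TTCNNNGAA (STAT), TGANTCA (AP-1), TGACGTCA (cyclic AMP response element) or GTAAACA (forkhead).
LTB: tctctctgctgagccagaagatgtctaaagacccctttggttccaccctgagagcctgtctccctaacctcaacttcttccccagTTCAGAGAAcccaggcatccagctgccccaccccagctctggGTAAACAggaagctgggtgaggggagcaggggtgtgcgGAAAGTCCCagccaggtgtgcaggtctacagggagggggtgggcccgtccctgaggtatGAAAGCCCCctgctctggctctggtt
IL32: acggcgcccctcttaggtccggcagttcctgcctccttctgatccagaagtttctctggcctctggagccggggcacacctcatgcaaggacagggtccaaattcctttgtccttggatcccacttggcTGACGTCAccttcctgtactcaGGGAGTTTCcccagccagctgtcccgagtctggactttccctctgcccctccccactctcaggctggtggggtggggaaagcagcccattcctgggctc
TNFRSF9: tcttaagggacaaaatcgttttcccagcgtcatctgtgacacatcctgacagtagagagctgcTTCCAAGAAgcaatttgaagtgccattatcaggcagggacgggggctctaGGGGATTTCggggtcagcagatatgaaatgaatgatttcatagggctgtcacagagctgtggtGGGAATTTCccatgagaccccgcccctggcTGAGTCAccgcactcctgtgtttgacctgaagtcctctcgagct

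The motif GGGNNTTTC was added after these sequences were read. Its occurrence in all 3 windows was known when it was added, so nothing is read from that. It occurred in 4.12% of all 27305 promoters of the table. TTCNNNGAA, in LTB and TNFRSF9, occurred in 6.78% of all promoters, TGANTCA in 6.60%, GTAAACA in 2.98% and TGACGTCA in 1.77%. The TATA box letters TATAAA were searched for as well, without a match in the 3 windows, and occurred in 11.1% of all promoters. The same was true of the E-box CACGTG, found in 6.49% of all promoters. The TEAD motif CATTCCA, in 3.59% of all promoters, was not found in the 3 windows, nor was AAAGGTCA, a nuclear receptor motif, in 1.05%. The table held a promoter for 64 of the 102 members, too few to compare the members with other genes. A match is a description of letters, and no measurement of binding was made.

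The immune members had the highest median peak ratio of the role groups, and part of them differed widely between S1D4 replicates. LTB, encoding lymphotoxin beta, a membrane cytokine of the TNF family, was at 19.5, 27.2, 6.39 and 4.56 CPM in the 4 S1D4 libraries. It was at most 0.208 CPM in untreated cells, 0.904 CPM in S2D4 and 0.132 CPM in S2D30, so the groups did not overlap. CCL2, encoding a chemokine that attracts monocytes, was at 302, 364, 62.6 and 59.5 CPM in S1D4, against 27.2, 18.7, 13.0 and 7.0 CPM in untreated cells. Its mean of 197 ± 159 CPM (SD, n = 4) was 11.9 times the untreated mean, and replicates 1 and 2 carried most of it. IL32, encoding a proinflammatory cytokine, was at 98.9, 119, 22.9 and 23.9 CPM in S1D4 and at 7.12 to 12.2 CPM in S2D30, above its 1.46 to 6.19 CPM in untreated cells. ICAM4, encoding an adhesion protein of red blood cells, was at 17.1, 21.6, 2.34 and 2.66 CPM in S1D4, with replicates 3 and 4 close to the 1.95 CPM of S2D4 replicate 4. In the GENCODE v29 annotation 100% of its exon bases lie opposite another gene and 85.5% of its 75-base words occur in other genes. In all 4 genes S1D4 replicates 1 and 2 were the high pair.

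Other immune members, chosen after their values were seen, divided into genes with this split and genes without it. TNFRSF9, encoding the costimulatory receptor 4-1BB, was at 47.6, 50.5, 20.8 and 22.9 CPM in S1D4 and at 1.45 to 3.11 CPM in untreated cells. Unlike LTB, it stayed above its untreated level, at 12.9 to 16.4 CPM in S2D4 and 7.15 to 9.92 CPM in S2D30. CX3CL1, encoding the membrane chemokine fractalkine, was at 16.7, 21.1, 5.86 and 5.11 CPM, and its replicates 3 and 4 lay below the highest S2D30 library, at 6.94 CPM. CYSLTR2, named by the rule for its change in GIMEN, encodes a receptor for cysteinyl leukotrienes and was at 18.3, 21.7, 6.87 and 5.66 CPM in S1D4, overlapping untreated cells at 4.07 to 7.75 CPM.

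SOCS3, the feedback inhibitor of cytokine receptors, showed no such split. It was at 58.7, 54.9, 67.8 and 64.4 CPM in S1D4, against 24.0, 21.5, 6.84 and 6.75 CPM in untreated cells. The untreated replicates split, while the S1D4 replicates lay close together. GBP2, encoding an interferon-inducible GTPase, was likewise even in S1D4, at 36.1, 33.4, 40.7 and 37.7 CPM, against at most 11.0 CPM in untreated cells and 6.07 CPM in both stage 2 groups. C4B, encoding a complement C4 protein, was at 115, 106, 114 and 91.0 CPM in S1D4 and at 15.1 to 42.4 CPM elsewhere in SK-N-AS. As 89.1% of its words occur in other genes, its counts may include those of a near-identical copy. PTGIR, the prostacyclin receptor gene, was at 162, 159, 221 and 212 CPM in S1D4 and reached 98.9 CPM in S2D4 replicate 4.

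The members included 3 genes of a wider chemokine and cytokine list written from general knowledge. Of its 40 genes, 30 had at least 1 CPM in an SK-N-AS group, and of these 6 were highest in S1D4 and 21 in S2D30. Among all 14742 genes at that level, 25.6% were highest in S1D4, 28.1% in S2D30 and 31.6% in untreated cells. The cytokine gene TNF and CXCL8, both no members, were named after their values were seen. TNF was at 12.6, 15.2, 2.57 and 1.45 CPM in S1D4 and at most 0.554 CPM elsewhere in SK-N-AS. It stayed outside the members because its mean was under 10 CPM. CXCL8, a chemokine for neutrophils, was at 44.2, 43.6, 12.7 and 13.2 CPM in S1D4 and at 1706 to 1956 CPM in S2D30. TNF and CXCL8 thus shared the split between S1D4 replicates with CCL2, while CXCL8 was highest in S2D30. As they were picked, nothing is read from this about other cytokine genes or about a cause, which was not tested. No gene of the interferon-stimulated list was a member, and of its 25 genes with at least 1 CPM, 7 were highest in S1D4 and 10 in untreated cells.

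**Figure D2:**
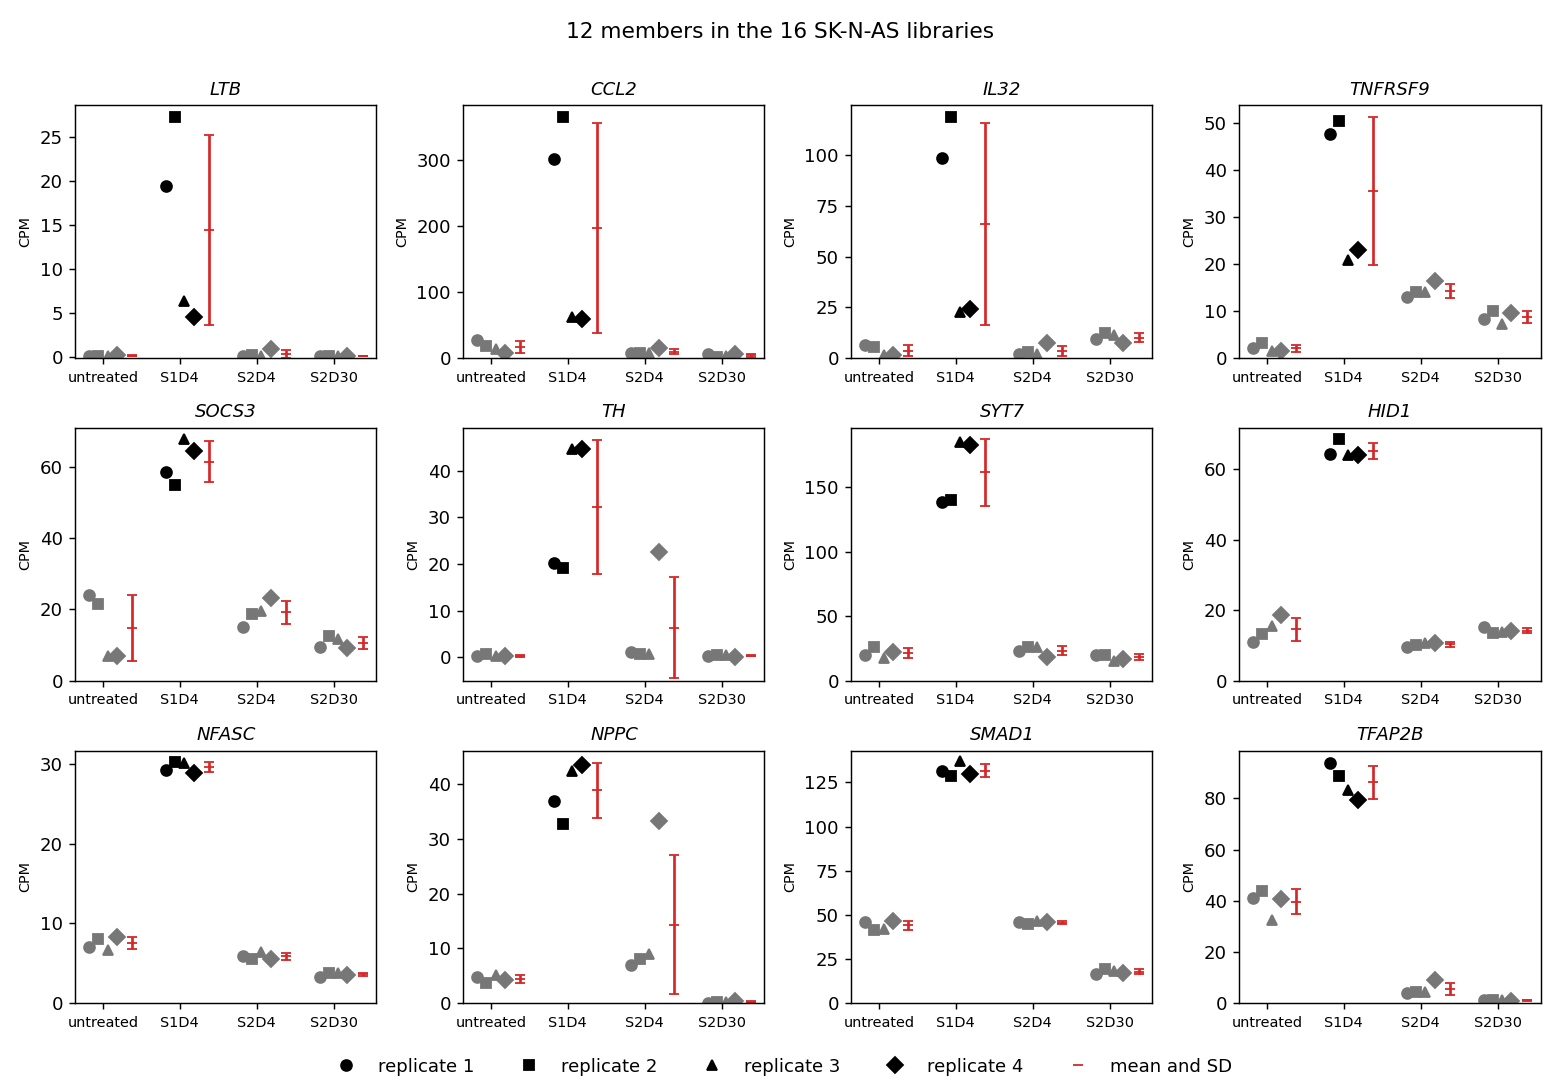
CPM of 12 members in the 16 SK-N-AS libraries, with marker shape for the replicate number and red bars for the mean and SD (n = 4). LTB, CCL2, IL32 and TNFRSF9 have high replicates 1 and 2 in S1D4, TH has high replicates 3 and 4, HID1, NFASC and SMAD1 are even, and TH and NPPC have a high S2D4 replicate 4.

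Neuronal and secretory members had a median coefficient of variation between S1D4 replicates of 13.4%, against 19.9% in the immune group. The other role groups ran from 12.3% (growth signals) to 32.4% (matrix), and the median of the 10228 genes was lower, at 7.88%. SYT7, encoding synaptotagmin 7, a calcium sensor of vesicle fusion, was at 138, 141, 185 and 183 CPM in S1D4 and at 15.1 to 26.2 CPM in the 12 other SK-N-AS libraries. HID1, which acts in dense core vesicle formation, was at 64.3, 68.8, 64.2 and 64.1 CPM in S1D4 and at 9.46 to 18.5 CPM elsewhere. TTBK1, encoding a kinase of tau, was at 31.6, 35.3, 31.8 and 29.5 CPM in S1D4, at most 9.63 CPM in untreated cells and at most 0.756 CPM in S2D30. In these 3 genes the S1D4 libraries lay well apart from all others. STMN4, of the stathmin family of microtubule regulators, was at 15.7, 17.5, 7.10 and 7.87 CPM in S1D4 and at most 0.219 CPM in S2D30. SPTBN4, encoding a spectrin of the axon initial segment, entered near the threshold with 24.5 to 32.1 CPM in S1D4, above the 21 CPM of S2D4 replicate 4.

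TH, encoding tyrosine hydroxylase, the rate-limiting enzyme of catecholamine synthesis, showed both the S1D4 and the S2D4 replicate pattern. It was at 20.2, 19.2, 44.6 and 44.7 CPM in S1D4, so that replicates 3 and 4 were the high pair, and at most 0.603 CPM in untreated cells. In S2D4 it was at 1.19, 0.692, 0.694 and 22.5 CPM, and only replicate 4 overlapped S1D4. The S1D4 mean was 5.12 times the S2D4 mean, and 37.4 times without that replicate. QDPR, which recycles the cofactor of tyrosine hydroxylase and was named after its values were seen, was at 162 to 180 CPM in S1D4 and at 65.7 to 82.7 CPM in untreated cells. DBH, a later enzyme of noradrenaline synthesis, no member and named likewise, was at 60.8 to 108 CPM in untreated cells and 14.9 to 18 CPM in S1D4. Of 19 catecholamine and dense core vesicle genes with at least 1 CPM, 6 (31.6%) were highest in S1D4 and 5 (26.3%) in untreated cells. Among all 14742 genes at that level these shares were 25.6% and 31.6%, and nothing is read from so small a list.

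Further neuronal members, also picked after their values were seen, differed in where they ended. NFASC, encoding the adhesion protein neurofascin, was at 28.8 to 30.2 CPM in S1D4, 6.69 to 8.31 CPM in untreated cells and 3.29 to 3.81 CPM in S2D30. CELF3, encoding a neuronal splicing factor, was at 171 to 202 CPM in S1D4 and 75.9 to 89.7 CPM in untreated cells, but at most 0.952 CPM in S2D30. NGFR, the p75 neurotrophin receptor gene, was at 104, 97.6, 143 and 135 CPM in S1D4 and at most 2.81 CPM in S2D30. Of its exon bases, 27.1% lie opposite another gene. Unlike NFASC, CELF3 and NGFR were well detected in untreated cells and low in S2D30. NGFR was also on the list of Schwann cell and glial markers, whose sum was 108 to 152 CPM in S1D4 and 28.7 to 64.6 CPM in untreated cells. Of its 4 genes with at least 1 CPM in a group, 3 were highest in S1D4, while S100B, SOX10, MBP, GFAP and CDH19 were among those under 1 CPM there. The part of such cells in the level of NGFR was not tested.

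Among growth signals, TGFB3, a ligand of the TGF-beta family, was at 22, 22.7, 20.5 and 19.9 CPM in S1D4, 5.38 to 8.57 CPM in untreated cells and at most 1.24 CPM in S2D30. ADM2, encoding a peptide hormone of the calcitonin family, was uneven, at 19.6, 23.1, 6.96 and 7.51 CPM in S1D4 against 3.57 to 5.99 CPM in untreated cells. SMAD1, a transducer of BMP signals named after its values were seen, was at 131, 129, 137 and 130 CPM in S1D4, 41.2 to 46.5 CPM in untreated cells and 16.3 to 19.4 CPM in S2D30. NPPC, encoding C-type natriuretic peptide and named likewise, was at 32.7 to 43.5 CPM in S1D4 and at 33.2 CPM in S2D4 replicate 4, against 7.03 to 8.97 CPM in the other S2D4 libraries. The S1D4 levels of TGFB3, SMAD1 and NPPC were even, and that of ADM2 followed the split of CCL2.

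TNFRSF19, a receptor of the TNF receptor family, was at 41.2, 40.9, 53.1 and 60.8 CPM in S1D4 and 13.6 to 30.1 CPM in untreated cells. TRIB2, encoding a pseudokinase that lowers FOXO activity, was at 356 to 411 CPM in S1D4, 103 to 125 CPM in untreated cells and 177 to 198 CPM in S2D4. VASH1, encoding an enzyme that trims the end of tubulin, was at 524, 565, 679 and 659 CPM in S1D4, 231 to 339 CPM in untreated cells and 40.5 to 46.6 CPM in S2D30. Its S2D4 libraries were at 75.5, 84.9, 87.6 and 249 CPM, and 21% of its exon bases lie opposite another gene. TRIB2 was the only member on the FOXO and PI3K feedback list, of whose 25 genes with at least 1 CPM 3 were highest in S1D4 and 11 in S2D30, against the 25.6% and 28.1% of all genes.

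Of the matrix members, CILP, encoding a cartilage matrix protein, was at 57.2, 56.1, 26.2 and 23.3 CPM in S1D4 and at most 3.46 CPM in the other SK-N-AS libraries. TLL2, encoding a tolloid-like protease, was at 35.1, 38.5, 19.4 and 18.8 CPM in S1D4 and at most 5.11 CPM elsewhere. Both had high replicates 1 and 2, yet replicates 3 and 4 also lay far above every other group. MMP17, a membrane-type matrix metalloproteinase gene, was at 16.6, 17.8, 24.0 and 25 CPM in S1D4, and S2D4 replicate 4 lay at 17.8 CPM against 2.53 to 3.51 CPM in S2D4 replicates 1 to 3. ITGA11, encoding a collagen-binding integrin subunit and named after its values were seen, ran the other way, at 64.0, 62.2, 128 and 128 CPM in S1D4.

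Of the 3 transcription factors, LMO2, a LIM-domain bridging protein of blood and vessel development, was at 9.03, 9.39, 11.7 and 13.9 CPM in S1D4 and at most 2.60 CPM in the other SK-N-AS libraries. TFAP2B, a factor of the sympathetic lineage, was at 79.3 to 93.9 CPM in S1D4 and 32.6 to 43.9 CPM in untreated cells, but at 3.81 to 8.92 CPM in S2D4 and at most 1.36 CPM in S2D30. LHX8, a LIM homeobox factor of cholinergic neurons, was at 85.4 to 114 CPM in S1D4 and at 35.0 to 52.1 CPM in all other SK-N-AS libraries. TFAP2B and LHX8 were named after their values were seen. In stage 2, LHX8 lay near its untreated level and TFAP2B lay below it.

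Among channels, transporters and enzymes, ANO9, of the anoctamin family of membrane proteins, was at 92.3, 163, 28.9 and 30.6 CPM in S1D4. In S2D4 it was at 0.781, 1.22, 1.16 and 52.7 CPM, so replicate 4 lay inside the S1D4 range and the others near the untreated 1.63 to 3.16 CPM. ABCA3, a lipid transporter gene, was at 152, 160, 178 and 175 CPM in S1D4 and 33.4 to 82.4 CPM elsewhere. P2RX6, an ATP-gated channel gene, was at 30.7 to 45.5 CPM in S1D4 and 13.7 to 21.3 CPM in untreated cells. ALDH1A3, which makes retinoic acid, was at 141, 132, 194 and 181 CPM in S1D4, 62.8 to 106 CPM in untreated cells and at most 5.36 CPM in S2D30, and 27.5% of its exon bases lie opposite another gene. In P2RX6 and ALDH1A3 the S1D4 replicates 3 and 4 were the higher pair, and ABCA3 was closer to even.

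The remaining genes named by the rule have roles not stated here. PBXIP1 was at 278, 282, 365 and 368 CPM in S1D4 and at 289 CPM in S2D4 replicate 4, inside that range. LRRN4 was at 151, 163, 218 and 211 CPM in S1D4 and 54.2 to 88.1 CPM in untreated cells. CPED1 was at 21.3, 18.4, 34 and 33.5 CPM in S1D4 and at most 11.8 CPM elsewhere in SK-N-AS. RP5-1187M17.10 was at 114, 130, 115 and 118 CPM in S1D4 and 38.3 to 58.2 CPM elsewhere.

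Replicates agreed on the direction of the peak for most members and on its size for fewer. In 89 of the 102 members all 4 S1D4 libraries lay above all 12 other SK-N-AS libraries, against 7.64% of the 10228 genes. The rule used these values, so nothing is read from that difference. The 13 exceptions were ANO9, TH, KREMEN2, TPBGL, NPPC, TTC9B, CX3CL1, CCDC78, HMP19, ORAI3, PBXIP1, CYSLTR2 and MMP17. Without S2D4 replicate 4 the count was 97. The coefficient of variation over the S1D4 libraries had a median of 16% in the members and 7.88% in the 10228 genes. It was under 20% in 65 members, against 92.1% of the 10228 genes, and over 50% in 11, against 0.538%.

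The pairs of S1D4 replicates differed in size for part of the members. Replicates 1 and 2 were at least 1.5 times replicates 3 and 4, by means plus 1, in 21 members, against 2.41% of the 10228 genes. The opposite held for 7 members (TH, CPED1, ZDHHC8P1, CCDC78, PRCD, ITGA11 and POLRMTP1), against 1.92%. Of the 21, 7 were among the 15 immune members and 4 among the 8 matrix members, while 3 were among the 22 neuronal members. With untreated and S1D4 replicates 1 and 2 alone the rule chose 129 genes, and with replicates 3 and 4 alone 103. Of the 102 members, 62 were chosen by both pairs, 23 by replicates 1 and 2 only, 15 by replicates 3 and 4 only and 2 by neither. The labels do not tie replicate numbers to a batch, and what sets the pairs apart was not tested.

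**Figure D3:**
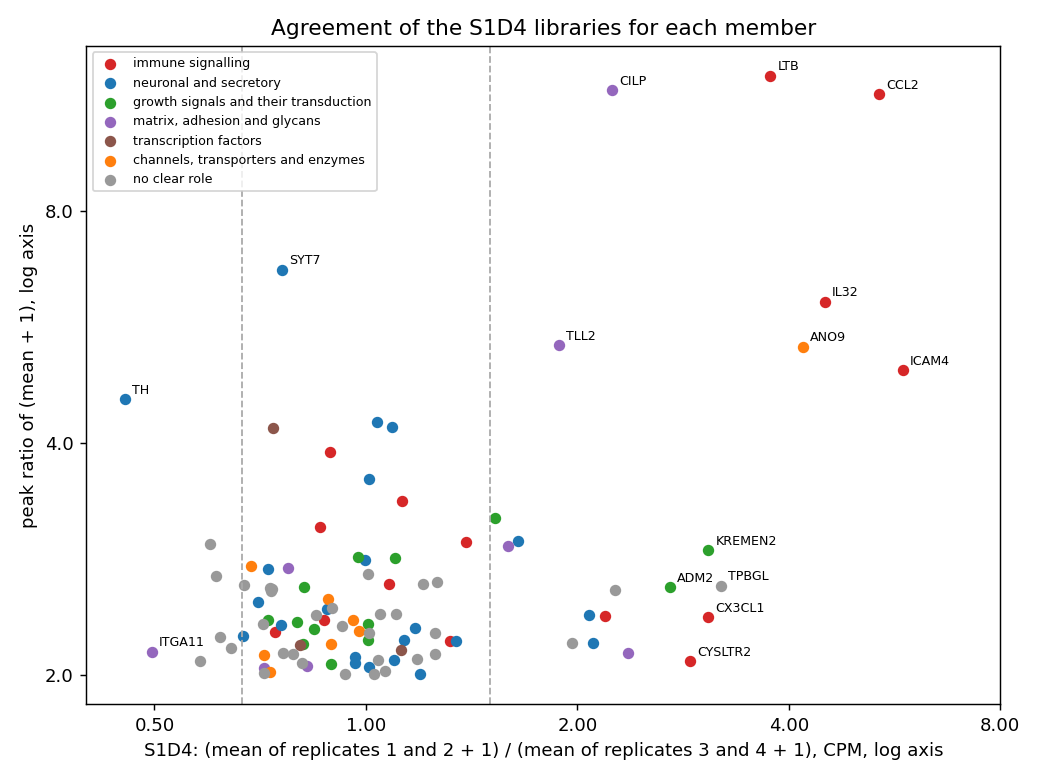
Peak ratio (log axis) of each member against the ratio of S1D4 replicates 1 and 2 to replicates 3 and 4 (log axis, means of CPM plus 1), coloured by role, with dashed lines at 1.5 in either direction. Of the members, 21 lie right of the right line and 7 left of the left line, and LTB, CCL2, IL32 and ICAM4 lie at the upper right.

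S2D4 replicate 4 was another source of disagreement. It was at least 2 times the mean of S2D4 replicates 1 to 3, by values plus 1, in 25 members, against 3.74% of the 10228 genes. It was at most 0.5 times that mean in 1 member, RPS6KL1, against 3.36%. The neuronal group had 9 of the 25, among them TH, NGFR and CELF3, and the channels, transporters and enzymes had 4. Without this library 120 genes were chosen, 101 of them members, so the library kept genes out rather than bringing them in. Without untreated replicate 4, 112 genes were chosen, 97 of them members.

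Libraries left out of the choice were examined next. When replicate 1 of each group was left out, 104 genes were chosen, and 77 of them (74.0%) had an S1D4 level at least 2 times that of each other group in the left-out libraries, against 1.26% of genes at 10 CPM. Leaving out replicate 2 gave 78 of 101 (77.2%, against 1.36%), and leaving out replicate 3 gave 68 of 96 (70.8%, against 1.28%). For replicate 4 the count was 51 of 131 (38.9%, against 0.725%), and there the left-out libraries include S2D4 replicate 4 and untreated replicate 4. Summed over the 4 rounds this was 274 of 432 choices, or 63.4%, and S1D4 was the highest left-out library in 414. In the round of replicate 4 this was 88.5%, and in the others 97.9% to 100%, against 22.8% to 28.6% of genes at 10 CPM. The rounds share members, so they are not independent. In each round the nearest partner of the left-out S1D4 library (1 with 2, 3 with 4) stayed in the choice. The shares are therefore no independent replication.

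After the peak, members ended at different levels. At S2D30, 40 members were at most 0.5 times their untreated level, by means plus 1, 59 lay between 0.5 and 2 times, and 3 were at least 2 times higher, namely IL32, ITGA11 and TNFRSF9. Among the 10228 genes, 18% were at most 0.5 times and 9.92% at least 2 times the untreated level. The lowest ratios were those of CELF3 at 0.022, TFAP2B at 0.054, ALDH1A3 at 0.073 and NGFR at 0.074. At S2D4 the members divided into 21, 75 and 6, where 13.6% of the 10228 genes were at most 0.5 times and 7.04% at least 2 times the untreated level. The rule bounds both stage 2 groups from above, which limits how many members can lie high.

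Features outside the measured levels also differed. The longest GENCODE v29 transcript, found for 97 members, had a median GC content of 58.4% in the members and 48.7% in the 10228 genes, with median lengths of 3417 and 3852 bases. Of these 97, 48 lay among the 2650 genes with the highest GC content, 20% of the genes compared, which had a median log2 difference of 0.46 between S1D4 and S2D4 and of 0.17 between S1D4 and untreated cells. Both features could be matched for 13251 genes with a mean of at least 1 CPM, where the rule chose 97. After GC content and length trends were removed from these it chose 61, of which 55 were members. It chose 57 after removal of the GC trend alone and 80 after removal of the length trend alone. The part of either trend in single genes was not tested. By gene type 95 members were protein coding, 2 were pseudogenes and 5 had no match. Of the 97 matched members, 12 had at least 20% of their 75-base words in other genes. At least 20% of exon bases lay opposite another gene in 8. Near neighbours, within 200 kb in the RefSeq gene table, were GBP2 with GBP4, ANO9 with LRRC56 and LMNTD2, SYNGR3 with CASKIN1 and ABCA3, KREMEN2 with IL32, ASIC2 with CCL2, and ATP6V1G2 with LTB.

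GIMEN gave the only comparison that the rule did not use. Many members were hardly detected there, as 57 were under 1 CPM on average in untreated GIMEN and 52 in D30, against 5.52% and 5.33% of the 10228 genes. LTB, ICAM4 and TH were among the 41 members too low to test. By edgeR's quasi-likelihood test with Benjamini-Hochberg adjustment over all 13517 genes tested, 29 of the 61 tested members rose in D30 and 7 fell, and 25 were not called. Of all tested genes, 35.5% rose and 36.0% fell, and of the tested members 47.5% rose and 11.5% fell. The median log2 fold change was 0.46 in the members and 0.02 in all genes tested. The 61 members passed a filter on low counts, near 0.511 CPM in 3 libraries. Of the 29 rises, 7 passed it only through D30, where they had to be higher (SYT7, GBP4, VWA5B2, CASKIN1, FRAT1, MYO15B and CYSLTR2), and 1 of the 7 falls passed only through untreated cells. These counts are therefore no support for a difference from other genes.

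CYSLTR2, which passed the filter only through D30, was the largest rise that the naming rule gave. It was at 0.728, 0.946 and 0.397 CPM in untreated GIMEN and at 7.89, 7.93 and 7.54 CPM in D30, which is 3.37 ± 0.25 (SE) on the log2 scale with an edgeR adjusted p of 2.92e-07. ABCA3 was at 1.86, 1.59 and 1.29 CPM in untreated cells and 14.9, 17.9 and 14 CPM in D30 (log2 fold change 3.20, SE 0.18, edgeR adjusted p 2.42e-08). Both genes were under 2 CPM in each untreated GIMEN library and above 7 CPM in each D30 library. RP5-1187M17.10 rose from 9.57 to 10.8 CPM to 27.8 to 36.6 CPM, by 1.63 on the log2 scale (SE 0.11), and P2RX6 from 6.40 to 7.53 CPM to 18.8 to 26.2 CPM, by 1.58 (SE 0.13). In these 4 genes no D30 library overlapped an untreated one.

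Of the falls, CPED1 went from 43.3, 39.8 and 40.8 CPM to 23.3, 18.6 and 21.1 CPM, which is -1.06 ± 0.09 (SE) on the log2 scale with an edgeR adjusted p of 8.92e-07. SOCS3 went from 51.9, 55.6 and 52.8 CPM to 29.7, 29 and 27.8 CPM (log2 fold change -0.98, SE 0.07, edgeR adjusted p 1.99e-07). These were the falls among genes with at least 5 CPM in a GIMEN group and no overlap of libraries, which the naming rule asks for. KREMEN2, whose protein binds inhibitors of Wnt signalling, fell from 4.23 to 5.59 CPM to 1.74 to 2.63 CPM (log2 fold change -1.32, SE 0.22, edgeR adjusted p 0.000258), and was named after its values were seen. CILP also fell, but from at most 0.989 CPM, and CX3CL1 fell from 2.98 to 4.82 CPM to 1.11 to 1.88 CPM (edgeR adjusted p 0.000467). SOCS3 and CX3CL1 thus fell in 30-day GIMEN, while TNFRSF9, chosen like CX3CL1 after its values were seen, rose from 1.59 to 3.32 CPM to 4.00 to 7.81 CPM (log2 fold change 1.30, SE 0.30, edgeR adjusted p 0.00221).

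By role, 4 of 9 tested immune members rose and 2 fell, 5 of 11 neuronal members rose and 0 fell, and 5 of 9 growth signal members rose and 2 fell. The matrix group had 1 fall among 4 tested, the channels, transporters and enzymes 4 rises among 5 tested, and no transcription factor was tested. Of the 23 tested members with no role given, 11 rose and 2 fell. Of all tested genes, 35.5% rose and 36.0% fell. The rises by role include SYT7, GBP4, VWA5B2, CASKIN1, FRAT1, MYO15B and CYSLTR2, which passed the filter only through D30. Nothing about the roles is read from these small counts. TRIB2 rose by 0.75, TNFRSF19 by 0.64, VASH1 by 0.47 and PBXIP1 by 1.09 on the log2 scale (SE 0.13, 0.06, 0.08 and 0.09). VASH1 was not called in a model of all 22 libraries, where its log2 fold change was 0.50 (edgeR adjusted p 0.202). SYT7, at no more than 0.344 CPM in untreated GIMEN and 0.972 CPM in D30, was called higher by 1.96 (SE 0.50), but it passed the filter only through D30. TGFB3, at 17.7 to 19.9 CPM in untreated GIMEN and 15.1 to 20.7 CPM in D30, was not called (edgeR adjusted p 0.435). Among the 14 tested genes of the chemokine and cytokine list, 7 rose and 3 fell, beside the same 35.5% and 36.0% of all tested genes.

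**Figure D4:**
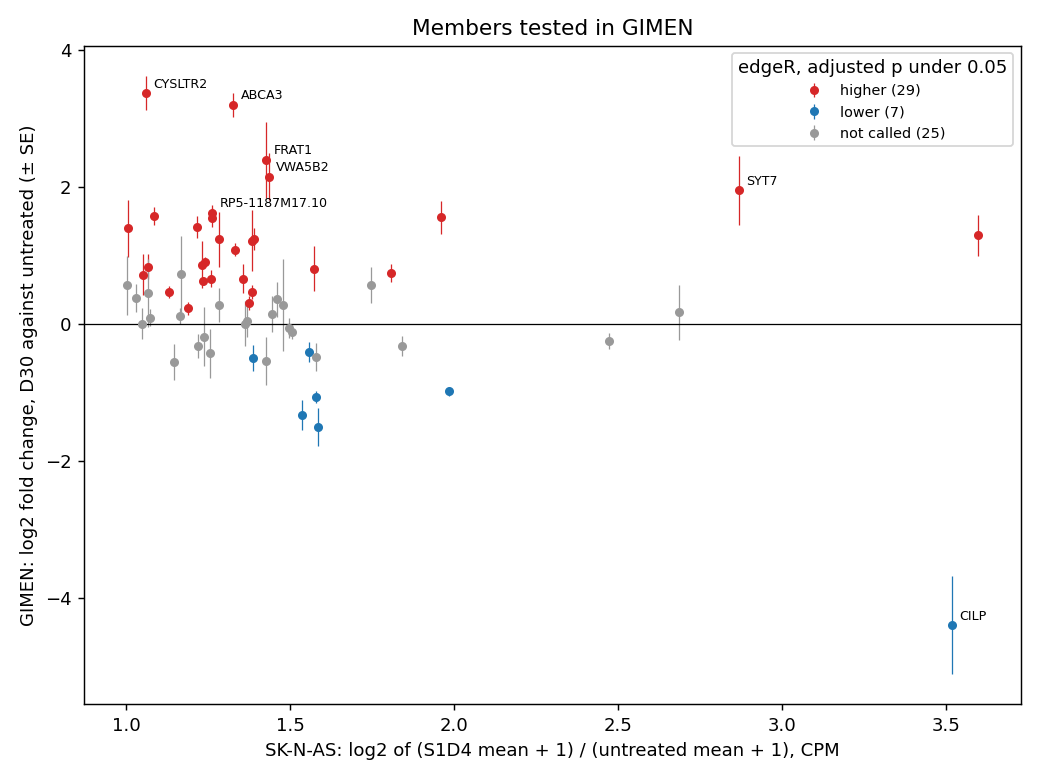
GIMEN log2 fold change of D30 against untreated (points with SE, edgeR) of the 61 tested members, against the log2 ratio of S1D4 to untreated SK-N-AS (means of CPM plus 1), coloured by call. There are 29 red points (higher), 7 blue (lower) and 25 grey, and CYSLTR2 and ABCA3 lie highest while CILP, at under 1 CPM, lies lowest.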

How the data were processed

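RNA of 22 libraries was analysed from the deposited table of raw counts per gene, which holds 1 column per library and 35237 gene symbols. That the deposited values are counts was checked on the values, which are whole numbers. The aligner, counting tool, genome build, annotation and use of strand are not given in the sources used here. Groups, doses and days come from the labels. CPM is the count divided by the column total. The members, role groups and lists were chosen with earlier results of these data known.

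The 6 GIMEN libraries were fitted in R 4.3.3 with edgeR 4.0.16 (filterByExpr with a minimum count of 10 and total of 15, TMM scaling, quasi-likelihood F-test, Benjamini-Hochberg threshold of 0.05), which was tested on simulated data. Replicate numbers did not pair these libraries, since deviations from the group means correlated at -0.04, -0.01 and 0.00. Within each group no 2 libraries were duplicates, which does not show that they came from separate cultures.

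Named genes are the 12 largest peak ratios, the 6 highest S1D4 means, up to 4 called rises and 4 called falls in GIMEN with at least 5 CPM in a group and no overlap of libraries, the 3 members nearest the threshold, the 3 largest coefficients of variation, and up to 2 members of each of 30 function lists. The rule gave 33 genes, and others are said to have been named after their values were seen. Alternatives were other scalings, thresholds and filters, DESeq2 1.42.0, and leaving out each library.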

Additional observations from a re-analysis of the deposited data

Results flagged for a closer look

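A library was singled out when the share of the range of its group taken by its gap to the nearest of the other 3 exceeded the critical value of Dixon for 4 values. This was looked at for the 33 genes named by rule in the 4 SK-N-AS groups, 132 groups in all. Groups with at most 3 counts in every library were passed over, and 18 flags were raised. Chance gives about 1 in 20 for independent groups. These groups share libraries and are not independent, so no excess over chance is read from the 18. Of the 18, 15 were S2D4 replicate 4.

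S2D4 replicate 4 was the highest of its group for ANO9 (52.7 CPM, the others at most 1.22), TH (22.5, at most 1.19), MMP17 (17.8, at most 3.51), ALDH1A3 (63.4, at most 20.6), VASH1 (249, at most 87.6), PBXIP1 (289, at most 112), PTGIR (98.9, at most 52.4) and TNFRSF19 (31.6, at most 16.2). The same held at lower ratios for LRRN4 (90.1 CPM, the others at most 58.8), RP5-1187M17.10 (58.2, at most 39.8), CPED1 (6.47, at most 4.90), CCL2 (15.1, at most 7.93), IL32 (7.29, at most 2.66) and LTB (0.904, at most 0.160). It was the lowest of its group for TTBK1, at 3.65 CPM against at least 5.65. These genes were chosen partly for a low S2D4 mean, and what sets this library apart was not tested.

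The other 3 were ANO9 in untreated replicate 2 (3.16 CPM, the others at most 1.83), HID1 in S1D4 replicate 2 (68.8, at most 64.3) and YPEL1 in S2D4 replicate 2 (13.9, at most 10.6).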

How the results depend on the processing

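The 102 members became 64 with 5 CPM added in place of 1, 324 with a ratio of 1.5, 17 with a ratio of 3, 61 after GC content and length trends were removed, and 57 after removal of the GC trend alone, the last 2 chosen after the data were seen. The 97 members with both features are the base of these 2. The other settings gave 74 to 140, with 74 after TMM scaling, and leaving out 1 library gave 97 to 120. TMM moved the median log2 difference of all genes by -0.21 for S1D4 against S2D4 and by -0.16 against S2D30. The share seen again in left-out libraries, 63.4% in all, was 38.9% to 77.2%. In GIMEN, a required log2 change of 1 or more in size left 1599 genes higher and 1738 lower, and 16 and 4 members. A model of all 22 libraries gave 4 members lower. Leaving out 1 GIMEN library gave 23 to 28 members higher and 5 to 9 lower. The replicate block gave 4658 genes higher and 4763 lower, with 28 and 8 members. Of 219 refits of the 17 named genes tested, 213 kept their direction and call. TGFB3, which was not called, ranged from -0.1795 to 0.0268 on the log2 scale when 1 library was left out, and changed sign without GIMEN D30 replicate 1. VASH1 lost its call in the model of all 22 libraries, and SPTBN4 without GIMEN D30 replicate 1 (edgeR adjusted p 0.077). YPEL1 gained a call without untreated GIMEN replicate 3 (0.0331), as did MMP17 (0.0178) and, without D30 replicate 1, again MMP17 (0.0487). Intervals between libraries cover 3 or 4 samples per group, and members at a few CPM carry counting error on top.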
